A study of Danio rerio with 6 samples.

Results

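Transcripts for the ribosome and the translation machinery were examined in zebrafish embryos homozygous for a mutation of *vhl*, the von Hippel-Lindau gene, and in wild-type embryos. The genes were taken by name. They were every gene with a probe whose symbol begins with *rpl*, *rps*, *mrpl*, *mrps*, *eif* or *eef*, together with *ptcd3*. This gave 28 genes, each with 1 probe, among 3121 genes with a symbol (3159 probes) and 41031 zebrafish probes in all. Of the 28 genes, 17 were named through the RefSeq accession of the probe and 5 through the leading stretch, in order of probe name, of the study's full probe table. The other 6 were named only by the study's table of changed genes. That table was selected on these same arrays, so those 6 genes are described without a test and enter no count. The 22 genes that were tested comprised 9 of the mitochondrial ribosome, 3 of the cytosolic ribosome, 7 initiation factors, 1 elongation factor and 2 kinases that share a symbol prefix.

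The cytosolic ribosome makes the proteins encoded in the nucleus, from a small and a large subunit whose protein components carry the prefixes *rps* and *rpl*. Mitochondria keep a separate ribosome, whose proteins (*mrps* and *mrpl*) are encoded in the nucleus and imported, and which makes core membrane subunits of the respiratory chain and of the ATP synthase. Initiation factors (*eif*) bring the mRNA, the initiator tRNA and the ribosomal subunits together, and elongation factors (*eef*) drive the addition of amino acids. The product of *vhl* targets the oxygen-sensitive subunit of HIF, the Hypoxia Inducible Factor, for breakdown, so loss of *vhl* leaves HIF active at normal oxygen.

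The *vhl* mutant group and the wild-type group had 3 samples each, labelled as replicates 1, 3 and 4 for *vhl* mutants and 2, 3 and 4 for wild-type embryos. Every sample was a pool of 30 whole embryos at 4 dpf from a TL/LWT strain mix, labelled with the dye Cy3 from 400 ng of total RNA and hybridised to 1 one-colour Agilent array. The study's methods describe the *vhl* allele as hu2117, carried in a line with a *phd3::EGFP* hypoxia reporter transgene. Whether the arrayed embryos of either group carried the reporter, or the wild-type embryos were siblings of the mutants, is not given in the sources used here. The level of *vhl* mRNA was not analysed here. In whole embryos, fewer cells of a type and less RNA per cell cannot be told apart.

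All *vhl* mutant arrays lay on 1 slide scanned on 1 date and all wild-type arrays on another, with 0 of 2 slides holding both groups, so for every value below the genotype and the slide, or its scan, cannot be told apart. Arrays correlated at 0.979 to 0.989 within *vhl* mutants and at 0.993 to 0.995 within wild-type, against 0.961 to 0.972 between the groups (Pearson's r over probes). Between 67.2 and 72.4% of zebrafish spots were well above background on *vhl* mutant arrays and 67.2 to 69.5% on wild-type arrays. The local background of 2 spots on the array of *vhl* mutant replicate 3 was extreme, reaching 14940.5 where the median of that array was 21. The mean background that the correction model (normexp) fitted for that array was -244.6 with these spots and 4.47 without them. On the other arrays it lay between 2.37 and 9.94. The values reported here keep the 2 spots in the model, so they enter the correction of every spot on that array. With the 2 spots left out, the class medians of log2 fold change given below became -0.56 for the mitochondrial ribosome, -0.41 for the cytosolic ribosome and 0.18 for the initiation factors. Values are log2 intensities after background correction (the normexp model) and quantile normalisation, and each fold change is that of *vhl* mutants relative to wild-type. A spot is called well above background where the scanner software flagged it so.

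Transcripts of the mitochondrial ribosome had a fold change below 1 in *vhl* mutants for 8 of the 9 genes tested, with a median log2 fold change of -0.54, and 5 of the 9 passed an adjusted p of 0.05 in that direction (limma, Benjamini-Hochberg over all probes), as 12.7% of all probes did. The genes of the cytosolic ribosome had one below 1 in 3 of 3, with a median of -0.39, and 2 passed. The initiation factors had a median of 0.17, and 1 of 7 passed, in the lower direction. Relative to the median of all probes, that class median fell below 0 under 7 of 26 other ways of processing the arrays. As fitted, it was below 0 without normalisation and with scaling to the E1A spike-in. With each scaling to the 75th percentile it stayed above 0 as fitted, at 0.053 to 0.19. No translation gene that was tested passed in the higher direction (0 of 22). Of the 22 tested genes, 14 had an unadjusted p of 0.05 or less in either direction (63.6%), against 37.5% of all probes. Among the 24255 probes well above background on all 6 arrays, as 20 of the 22 genes were, 12517 had an unadjusted p below 0.05.

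Over all 22 genes, 8 were lower at an adjusted p of 0.05, which is 36.4%. The same limit was passed in the lower direction by 12.7% of all 41031 probes, and by 18.6% of the 24255 probes flagged as well above background on all 6 arrays, as 20 of the 22 genes were. In the higher direction it was passed by 0 of 22 genes and 11.7% of all probes, and in either direction by 24.4% of all probes. At an adjusted p of 0.01 without a limit on the fold, 4 genes were lower, against 5.3% of all probes (10.4% in either direction). Among the 24255 probes well above background, 1956 were lower at that limit. With a change of at least 2-fold as well, 1 gene passed, in the lower direction, against 1.55% of all probes, and 0 in the higher direction, against 1.67% (3.22% in either direction). The values of the *vhl* mutant arrays all lay below those of the wild-type arrays for 10 of 22 genes, against 22.4% of all probes. They all lay above for 2 of 22 genes, against 21.4% of all probes (43.8% in either direction). Among the 24255 probes well above background, they all lay below for 6780 and all above for 6385. The median log2 fold change was -0.28 over the 22 genes and -0.00 over all probes, both with the fitted values of probes near background counted in.

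**Figure D1:**
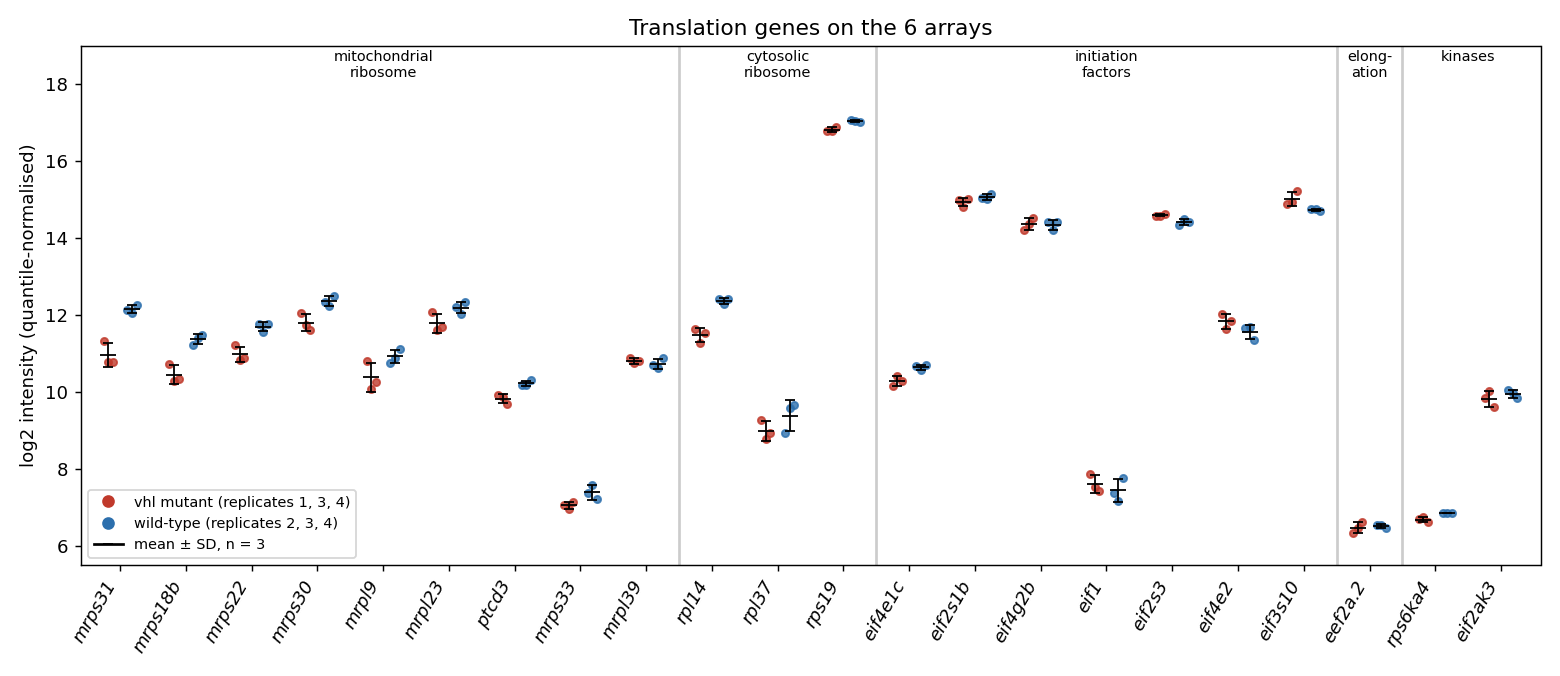
Log2 intensity (quantile-normalised) of the 22 tested translation genes on each array, grouped by class, with *vhl* mutant arrays as red points left of wild-type arrays as blue points and black bars for the mean ± SD (n = 3 each). The *mrps31*, *mrps18b*, *mrps22* and *rpl14* points of *vhl* mutants lie clear below those of wild-type embryos, while those of *mrpl39*, *eif4g2b* and *eif1* overlap. Levels of different probes cannot be compared with each other.

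The small subunit of the mitochondrial ribosome held the largest differences among the tested mitochondrial genes. *mrps31*, a small-subunit protein, had log2 intensities of 11.31, 10.77 and 10.78 on the *vhl* mutant arrays (replicates 1, 3 and 4), against 12.14, 12.07 and 12.26 on the wild-type arrays (replicates 2, 3 and 4). The groups did not overlap, and *vhl* mutant replicate 1 was the mutant array nearest to wild-type. The means were 10.95 ± 0.31 in *vhl* mutants and 12.16 ± 0.10 in wild-type (SD, n = 3 each). This was a log2 fold change of -1.20 (SE 0.16, limma adjusted p = 0.00434), a level 2.30-fold lower in *vhl* mutants. It was the 1 tested gene that passed 2-fold and an adjusted p of 0.01, and it was also listed in the study's table of changed genes, although its symbol came from RefSeq. The 2-fold change remained when any 1 array was left out. The adjusted p was 0.000574 without *vhl* mutant replicate 1, but 0.0158 without *vhl* mutant replicate 3 and 0.0151 without *vhl* mutant replicate 4. Without wild-type replicate 2, 3 or 4 it was 0.0220, 0.0217 or 0.0244, so the call at 0.01 was lost in those 5 fits. Over all 25 alternatives it ranged from 1.52e-11 to 0.0961. The lowest value came with scaling to the E1A spike-in and the 2 extreme spots left out. There *mrps31*, *mrps18b* and *ptcd3* had the same SE (0.28), so that p does not measure the spread of *mrps31* itself.

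*mrps18b* is 1 of 3 genes that share descent from bacterial ribosomal protein S18, and its product sits in the small subunit. Its probe was printed 15 times on each array. The averages were 10.73, 10.27 and 10.35 on *vhl* mutant arrays, against 11.23, 11.41 and 11.49 on wild-type arrays. Every *vhl* mutant average was below every wild-type average, and again *vhl* mutant replicate 1 was the highest of its group. Between 12 and 15 of these spots per array remained after outlier-flagged ones were left out. Their SD within an array was between 0.07 and 0.24, and single spots met in a narrow zone, with the highest *vhl* mutant spot at 10.96 and the lowest wild-type spot at 10.86. The log2 fold change was -0.92 (SE 0.14, limma adjusted p = 0.00655), from means of 10.45 ± 0.25 in *vhl* mutants and 11.38 ± 0.13 in wild-type embryos (SD, n = 3 each). Spots of 1 array measure the same RNA, so the test used the array averages. The difference stayed at an adjusted p below 0.05 in each of the 6 fits without 1 array, between 0.00132 and 0.0336, and the log2 fold change then lay between -1.06 and -0.83.

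*mrps22*, a small-subunit protein without a bacterial counterpart, was named through the study's full probe table. It measured 11.21, 10.84 and 10.88 in *vhl* mutants, against 11.76, 11.57 and 11.77 in wild-type. The log2 fold change was -0.72 (SE 0.12, limma adjusted p = 0.00860), and the groups did not overlap. *mrps30*, which was first assigned to the small subunit and lies in the large subunit of the mammalian ribosome, measured 12.05, 11.75 and 11.61 in *vhl* mutants, against 12.35, 12.23 and 12.50 in wild-type. Its log2 fold change was -0.56 (SE 0.13, limma adjusted p = 0.0276). That adjusted p was 0.00545 without *vhl* mutant replicate 1. It rose above 0.05, to between 0.0575 and 0.0946, when *vhl* mutant replicate 3 or 4 or any 1 of the wild-type replicates was left out.

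*ptcd3*, a pentatricopeptide repeat protein of the mitochondrial small subunit, was also printed 15 times per array. It averaged 9.91, 9.88 and 9.68 on *vhl* mutant arrays, against 10.18, 10.17 and 10.31 on wild-type arrays. The means were 9.82 ± 0.12 in *vhl* mutants and 10.22 ± 0.08 in wild-type (SD, n = 3 each), with an SD of 0.07 to 0.13 over the 13 to 15 spots kept per array. The difference was smaller than that of *mrps18b*, at a log2 fold change of -0.40 (SE 0.09, limma adjusted p = 0.0206). Without 1 wild-type replicate the adjusted p was 0.0570 for replicate 2, 0.0579 for replicate 3 and 0.0725 for replicate 4, and it stayed below 0.05 without any 1 *vhl* mutant replicate. *mrps33*, another small-subunit protein, was measured close to background, at 7.06, 6.96 and 7.13 in *vhl* mutants, against 7.37, 7.59 and 7.21 in wild-type. Its groups did not overlap, but the change of -0.34 (SE 0.11) did not pass (limma adjusted p = 0.0709). With the scanner software's processed signal in place of the median signal and quantile normalisation kept, the *mrps33* change was -1.06 (limma adjusted p = 0.0229). Its adjusted p ranged from 0.00837 to 0.736 over 25 alternatives and was at or below 0.05 in 5.

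For the 3 tested genes of the large subunit named *mrpl*, the groups overlapped and 0 of 3 passed an adjusted p of 0.05, against 5 of the 6 *mrps* genes and *ptcd3* and 12.7% of all probes in the lower direction. The groups did not overlap for 6 of those 6, against 22.4% of all probes with *vhl* mutants lower. Whether the sets differ was not tested, and the split by symbol was made after the values were seen. It is not a split by subunit, since *mrps30*, of the large subunit in mammals, is among the 6 and passed. *mrpl9* measured 10.81, 10.08 and 10.26 in *vhl* mutants, against 10.77, 10.89 and 11.12 in wild-type, and *vhl* mutant replicate 1 lay above the lowest wild-type array. This gave a log2 fold change of -0.54 (SE 0.20, limma adjusted p = 0.101). *mrpl23*, a protein near the exit of the polypeptide tunnel, measured 12.07, 11.61 and 11.68 in *vhl* mutants, against 12.22, 12.04 and 12.33 in wild-type, with a log2 fold change of -0.41 (SE 0.14, limma adjusted p = 0.0910). Here too *vhl* mutant replicate 1 was inside the wild-type range. *mrpl39* was the exception in sign, at 10.89, 10.75 and 10.80 in *vhl* mutants, against 10.69, 10.62 and 10.88 in wild-type. Its log2 fold change of 0.08 (SE 0.09, limma adjusted p = 0.547) was within the spread between arrays and changed sign, relative to all probes, under 7 of 25 alternatives.

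A 10th gene of the mitochondrial ribosome, the large-subunit protein *mrpl16*, had its symbol only from the table of changed genes. It measured 12.18, 11.76 and 11.58 in *vhl* mutants, against 10.33, 10.32 and 10.47 in wild-type, a log2 difference of 1.47 in the direction opposite to the tested mitochondrial genes other than *mrpl39*. It was chosen for its change and is given as a description.

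**Figure D2:**
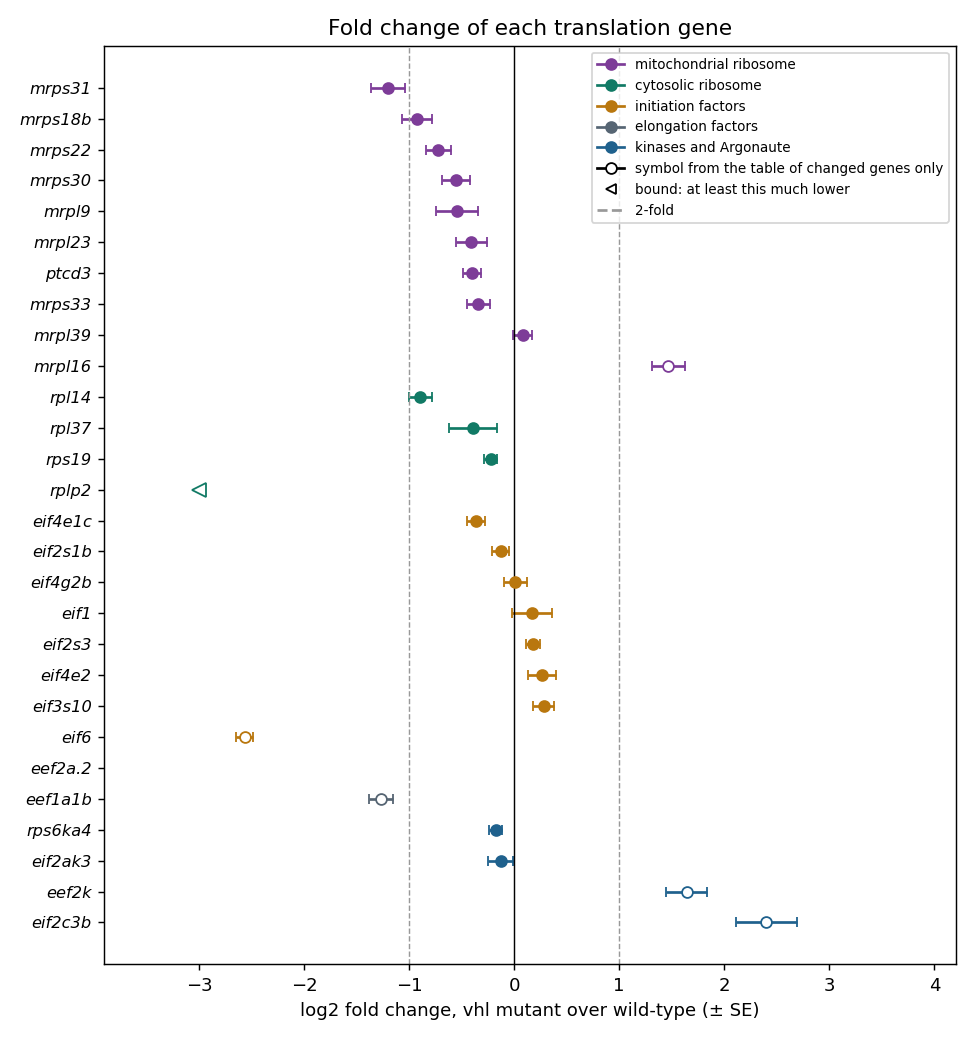
Log2 fold change of each translation gene, *vhl* mutant over wild-type, with the SE of the limma fit (n = 3 arrays each), coloured by class; open symbols are genes named only by the study's table of changed genes, which were selected for their change. The left-pointing triangle for *rplp2* is a bound, *eef2a.2* has no fold change because its signal did not rise well above background, and of the filled points 1, *mrps31*, lies beyond the dashed 2-fold lines.

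The cytosolic ribosome had few probes with a symbol, 4 in all and 3 that were tested. *rpl14*, a large-subunit protein named through the study's full probe table, measured 11.62, 11.27 and 11.54 in *vhl* mutants, against 12.41, 12.28 and 12.42 in wild-type. The groups were far apart compared with the spread within them, with means of 11.48 ± 0.19 in *vhl* mutants and 12.37 ± 0.08 in wild-type (SD, n = 3 each). The log2 fold change was -0.89 (SE 0.11, limma adjusted p = 0.00332), a level 1.86-fold lower in *vhl* mutants, and it passed an adjusted p of 0.05 in each of the 6 fits without 1 array. This was close to the change of *mrps18b* and larger than that of most mitochondrial genes.

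*rps19*, a small-subunit protein whose human counterpart is mutated in Diamond-Blackfan anaemia, was printed 15 times on each array. It averaged 16.80, 16.78 and 16.89 on *vhl* mutant arrays, against 17.07, 17.05 and 17.02 on wild-type arrays. The averages did not overlap, although single spots did, with the highest *vhl* mutant spot at 17.06 and the lowest wild-type spot at 16.81. The log2 fold change was small, at -0.22 (SE 0.06, limma adjusted p = 0.0487), and became 0.14 (adjusted p = 0.524) when the arrays were normalised by cyclic loess. Its adjusted p was above 0.05 in each of the 6 fits without 1 array. It was 0.0780 without *vhl* mutant replicate 1, 0.138 without replicate 3 and 0.0618 without replicate 4, and 0.131, 0.128 and 0.1001 without wild-type replicates 2, 3 and 4. Over 25 alternatives it ranged from 0.0304 to 0.952 and was at or below 0.05 in 3.

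*rpl37*, of the large subunit, measured 9.27, 8.77 and 8.92 in *vhl* mutants, against 8.92, 9.57 and 9.65 in wild-type. Wild-type replicate 2 lay within the mutant range, and the log2 fold change of -0.39 (SE 0.23) did not pass (limma adjusted p = 0.261). *rplp2* encodes an acidic protein of the ribosomal stalk, where translation factors bind, and had its symbol only from the table of changed genes. It measured 6.41, 6.35 and 6.30 in *vhl* mutants, with 0 of 3 mutant arrays well above background, against 8.18, 10.14 and 9.91 in wild-type. Each mutant array was set to its own detection floor, the dimmest signal there that was well above background, unless the probe itself was brighter. On that basis the mean *rplp2* signal of these 3 mutant arrays was at least 7.999-fold below the mean of the wild-type arrays. The floor raised only *vhl* mutant replicate 4 (to 6.47). On *vhl* mutant replicates 1 and 3 the probe was brighter than the floor (6.33 and 5.67) without being flagged, so the floor is not a strict detection limit. The bound allows for the mutant floor but not for the spread of wild-type. Without the floor, the log2 difference lay between -3.67 and -2.69 when 1 array was left out. The wild-type arrays themselves spread over 1.07 (SD).

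Mitochondrial and cytosolic ribosomal genes were compared on each array as the mean deviation of a class from the wild-type means of its genes. The 9 mitochondrial genes deviated by -0.33, -0.68 and -0.65 on the *vhl* mutant arrays, against -0.04, -0.05 and 0.09 on the wild-type arrays. The 3 cytosolic genes deviated by -0.37, -0.66 and -0.48 on the *vhl* mutant arrays, against -0.13, 0.03 and 0.10 on the wild-type arrays. In both classes *vhl* mutant replicate 1 was the mutant array closest to wild-type. The difference, mitochondrial minus cytosolic, was 0.04, -0.02 and -0.17 on *vhl* mutant arrays, against 0.09, -0.08 and -0.01 on wild-type arrays. These overlapped, so the classes were not separated beyond the spread between arrays with 3 cytosolic genes measured. The class medians of the log2 fold change differed by -0.15. Each median is the value of 1 gene, *mrpl9* for the mitochondrial and *rpl37* for the cytosolic class. The groups overlapped for both genes, and neither passed an adjusted p of 0.05. The class means differed by -0.05. Over 27 alternatives the difference of the medians, or of the means in 1 of them, lay between -0.36 and 0.08. It was below 0 in 25. It was above 0 with the replicate number as a block (0.08) and without wild-type replicate 2 (0.06).

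The initiation factors lay close to their wild-type means on the *vhl* mutant arrays. Their mean deviation was 0.07, 0.01 and 0.10 on the *vhl* mutant arrays, against 0.01, -0.05 and 0.04 on the wild-type arrays. Mitochondrial minus initiation was -0.40, -0.69 and -0.76 on *vhl* mutant arrays, against -0.04, -0.00 and 0.05 on wild-type arrays. Cytosolic minus initiation was -0.44, -0.67 and -0.58 on *vhl* mutant arrays, against -0.14, 0.08 and 0.06 on wild-type arrays. Neither pair of groups overlapped. The class medians differed by -0.71 (mitochondrial minus initiation), with a range of -0.81 to -0.58 over 26 alternatives. For cytosolic minus initiation they differed by -0.56, with a range of -0.89 to -0.31. These are values within an array, which an equal shift of all probes does not move. A slide effect that differs with the intensity of a probe would not cancel, and this was not tested. The initiation factors were set beside the ribosomal genes after the values were seen, and members of a class are not replicates, so no test was made.

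**Figure D3:**
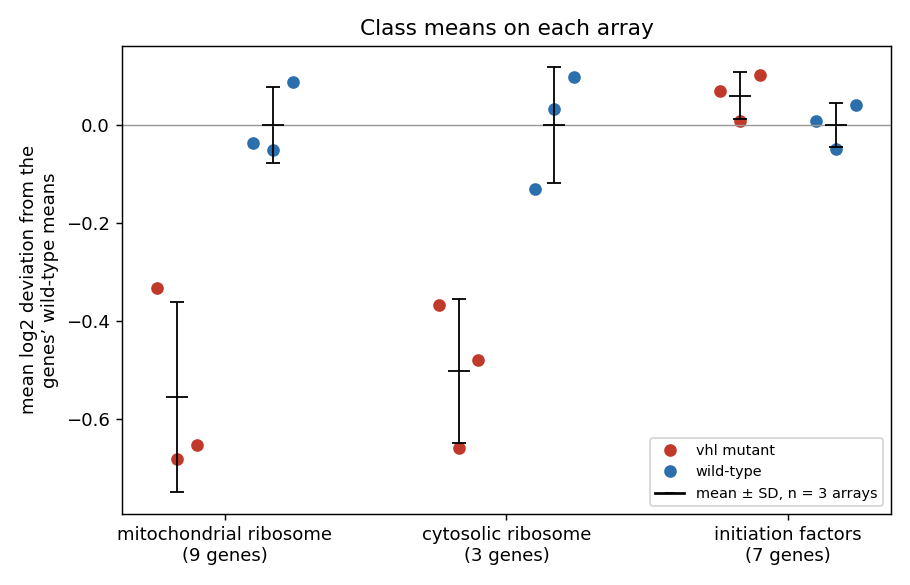
Mean log2 deviation of each class from the wild-type means of its genes on each array, with *vhl* mutant arrays in red left of wild-type arrays in blue and bars for the mean ± SD (n = 3 arrays each). The *vhl* mutant arrays lie between -0.68 and -0.33 for the mitochondrial ribosome and between -0.66 and -0.37 for the cytosolic ribosome, and between 0.01 and 0.10 for the initiation factors.

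Among the initiation factors, *eif4e1c* passed an adjusted p of 0.05. It belongs to the eIF4E family, which binds the mRNA cap, and is a paralogue found in fish. It measured 10.15, 10.41 and 10.28 in *vhl* mutants, against 10.67, 10.57 and 10.69 in wild-type, and the groups did not overlap. This was a log2 fold change of -0.36 (SE 0.09, limma adjusted p = 0.0269). The adjusted p was 0.0350 without *vhl* mutant replicate 1 and 0.0288 without *vhl* mutant replicate 3. It was above 0.05, between 0.0600 and 0.0913, without *vhl* mutant replicate 4 or any 1 of the wild-type replicates. A second member of the family, *eif4e2*, whose human product forms a cap-binding complex with HIF-2α at low oxygen, measured 12.02, 11.64 and 11.84 in *vhl* mutants, against 11.65, 11.69 and 11.35 in wild-type. These groups overlapped, and the log2 fold change of 0.27 (SE 0.13) did not pass (limma adjusted p = 0.204). Relative to all probes, it was below 0 under 7 of 25 alternatives.

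For 2 of the 7 initiation factors the *vhl* mutant arrays all lay above the wild-type arrays, as for 21.4% of all probes. *eif3s10*, the older symbol of the largest subunit of eIF3, measured 14.89, 14.94 and 15.22 in *vhl* mutants, against 14.76, 14.75 and 14.71 in wild-type. Its log2 fold change was 0.28 (SE 0.10, limma adjusted p = 0.0910), with the opposite sign, relative to all probes, under 4 of 25 alternatives. *eif2s3*, the γ subunit of eIF2, which carries the initiator tRNA, measured 14.57, 14.59 and 14.63 in *vhl* mutants, against 14.35, 14.49 and 14.42 in wild-type. Its log2 fold change was 0.18 (SE 0.06, limma adjusted p = 0.0958), with the opposite sign, relative to all probes, under 7 of 25 alternatives. Neither passed. The α subunit of the same complex, *eif2s1b*, whose phosphorylation limits initiation, measured 14.98, 14.82 and 15.03 in *vhl* mutants, against 15.04, 15.02 and 15.15 in wild-type. Its groups overlapped, with a log2 fold change of -0.13 (SE 0.08, limma adjusted p = 0.306) that became 0.01 with cyclic loess.

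The remaining tested initiation factors did not separate the groups. *eif4g2b*, a relative of the scaffold eIF4G that lacks the part which binds eIF4E, measured 14.21, 14.36 and 14.51 in *vhl* mutants, against 14.42, 14.21 and 14.43 in wild-type. Its log2 fold change of 0.01 (SE 0.11, limma adjusted p = 0.948) changed sign, relative to all probes, under 9 of 25 alternatives. *eif1*, which helps to select the start codon, measured 7.88, 7.52 and 7.43 in *vhl* mutants, against 7.38, 7.16 and 7.77 in wild-type, with a log2 fold change of 0.17 (SE 0.19, limma adjusted p = 0.555). *eif6*, which keeps the large ribosomal subunit from joining the small one, had its symbol only from the table of changed genes. It measured 10.36, 10.37 and 10.29 in *vhl* mutants, against 12.83, 12.83 and 13.06 in wild-type, a log2 difference of -2.57, given as a description.

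Elongation factors were hardly covered. The probe for *eef2a.2*, named as a copy of the translocation factor eEF2, failed to rise well above background (0 of 3 arrays in each group), and a fold change is therefore not given. *eef1a1b*, which delivers aminoacyl-tRNA to the ribosome, was named only by the table of changed genes. It measured 9.002, 9.17 and 9.16 in *vhl* mutants, against 10.53, 10.43 and 10.17 in wild-type, a log2 difference of -1.27. Zebrafish have several closely similar *eef1a* genes, and whether the probes for this gene and for other genes with a close copy, such as *eif2s1b* and *eif4g2b*, also bind the transcript of the copy was not tested.

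The remaining 4 genes share a prefix with translation factors but encode regulators. *eef2k*, the kinase that inhibits eEF2 and so slows elongation, measured 14.30, 14.87 and 14.98 in *vhl* mutants, against 12.87, 13.20 and 13.14 in wild-type, a log2 difference of 1.64. *eif2c3b*, the older symbol of the Argonaute gene *ago3b*, whose family carries small RNAs, measured 9.51, 10.12 and 10.62 in *vhl* mutants, against 7.37, 7.83 and 7.85 in wild-type, a log2 difference of 2.399. Both were named only by the table of changed genes and are given as a description. *eif2ak3*, the kinase PERK, which phosphorylates the α subunit of eIF2 under stress of the endoplasmic reticulum, measured 9.84, 10.02 and 9.61 in *vhl* mutants, against 10.05, 9.96 and 9.85 in wild-type. Its groups overlapped (log2 fold change -0.13, SE 0.12, limma adjusted p = 0.474). *rps6ka4*, the kinase MSK2, reached a signal well above background on 1 of the 3 *vhl* mutant arrays and 3 of 3 wild-type arrays, and its log2 fold change of -0.17 (SE 0.06) did not pass (limma adjusted p = 0.0957).

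The medians of the ribosomal classes were below 0 under each scaling that was run, both as fitted and relative to all probes. The median of the mitochondrial genes was below 0 in each of 26 alternatives, between -1.33 and -0.42. Among the 9 genes, 8 or 9 were lower in each of the 25 alternatives that kept all 9, and 5 of 6 were with RefSeq symbols only. The median of the cytosolic genes was likewise below 0 in each of 26, between -0.97 and -0.26. Where a scaling moved the median of all probes by more than 0.1, these values are relative to that shift, while the adjusted p-values and the counts test the fold change as fitted, without taking the shift off. Scaling normexp values to the 75th percentile, to E1A or not at all differs only by a shift of whole arrays. Once the shift was taken off, these scalings gave the same or nearly the same class medians, so they are not separate checks. As fitted, the mitochondrial median lay between -1.46 and -0.42 and the cytosolic median between -1.13 and -0.26. The shift was 0.71 with normexp and a 75th percentile scaling and 0.56 without normalisation. With the 2 extreme spots left out it was 0.28 at the 75th percentile and -0.49 with scaling to E1A. It was 0.33 for the processed signal scaled to its 75th percentile and -0.13 with scaling to E1A, the control RNA spiked into every labelling. How many genes passed did depend on the scaling. The count at an adjusted p of 0.05 was 8 with quantile normalisation, where 24.4% of all probes passed in either direction. It was 0 with the 75th percentile of normexp values (0.668% of all probes) and 0 without normalisation (0.0512%), and it was 13 with scaling to the E1A spike-in (19.7%). With the 2 extreme spots left out, the count was 10 with the 75th percentile (54.9%) and 10 without normalisation (26.1%). With E1A scaling *mrps31*, *mrps18b* and *ptcd3* had the same SE (0.37), so those p-values do not measure the spread of single genes.

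**Figure D4:**
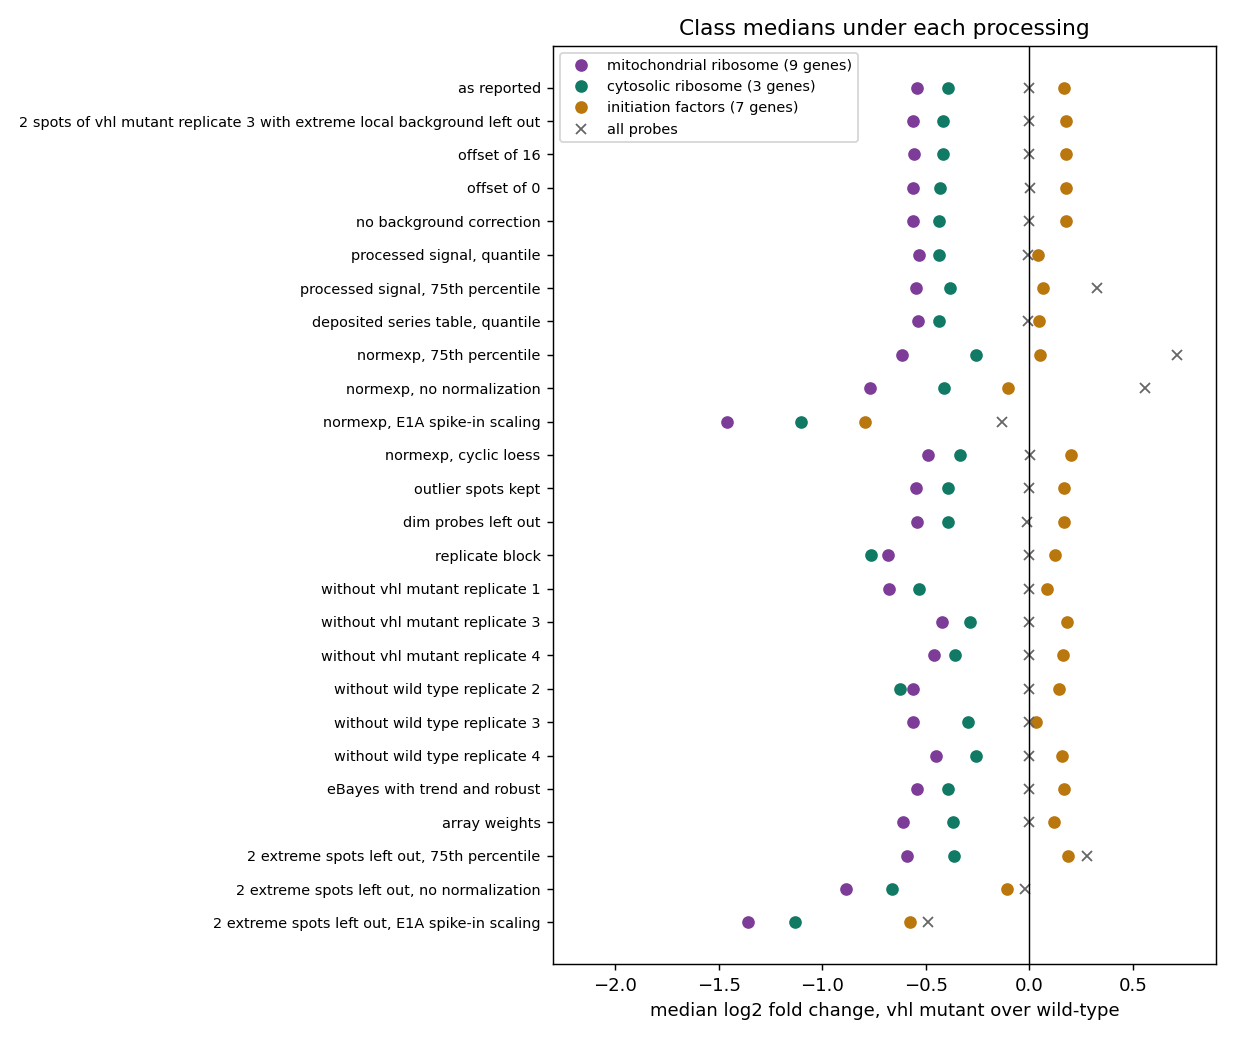
Median log2 fold change, *vhl* mutant over wild-type, of the 9 mitochondrial ribosomal genes (purple), the 3 cytosolic ribosomal genes (green), the 7 initiation factors (ochre) and all probes (grey crosses) under each way of processing the arrays, as fitted and not relative to the shift of all probes. Purple and green lie left of ochre in each row, the initiation factors cross 0 with some scalings, and the purple and green points change order with the replicate block and without wild-type replicate 2.

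Genes outside the 28 that serve translation were counted from lists of the pathway. Few had a probe with a symbol. Of 78 genes of ribosome biogenesis, 8 had one, and 6 of these were tested, with a median log2 fold change of -0.59. The change was negative in all 6, and 2 of them passed an adjusted p of 0.05, against 12.7% of all probes in the lower direction. They were *polr1b*, a subunit of RNA polymerase I, which transcribes ribosomal RNA (-0.73, SE 0.09, limma adjusted p = 0.00367), and *pes*, which processes the RNA of the large subunit (-0.56, SE 0.10, limma adjusted p = 0.0125). *polr1b* measured 9.84, 9.69 and 9.52 in *vhl* mutants, against 10.41, 10.40 and 10.41 in wild-type. *pes* measured 12.35, 12.25 and 12.20 in *vhl* mutants, against 13.01, 12.65 and 12.83 in wild-type. Both genes had groups that did not overlap, as did *ddx49*, *nol10* and *riok2*, with *vhl* mutants lower, while the groups overlapped for *rrp9*. Of all probes, 22.4% had all *vhl* mutant arrays below the wild-type arrays.

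Of 27 mitochondrial translation factors and synthetases, 3 were tested, with a median log2 fold change of -0.52. The tyrosyl-tRNA synthetase *yars2* was lower (-0.52, SE 0.07, limma adjusted p = 0.00405) but cleared background on 1 of the 3 *vhl* mutant arrays against 3 of 3 wild-type arrays. *lars2* had a log2 fold change of -0.63 (SE 0.29, limma adjusted p = 0.167) and *fars2* of 0.00 (SE 0.11, limma adjusted p = 0.989). Of 21 cytosolic aminoacyl-tRNA synthetases, 3 were tested and 0 passed an adjusted p of 0.05, against 24.4% of all probes in either direction. Their median was -0.15, the values being -0.13 for *aars1*, -0.33 for *cars1* and -0.15 for *sars1*. Of 22 genes of termination, recycling and the nascent chain, 2 were tested and 0 passed, against the same 24.4% of all probes. These were *btf3l4* (-0.10) and *gnb2l1*, the ribosomal scaffold also called RACK1 (0.02). Of 32 regulators around the mTOR pathway, 3 had a probe. *mknk1*, a kinase of eIF4E, was tested and did not pass (0.29, SE 0.14, limma adjusted p = 0.203). *ddit4*, which encodes an inhibitor of mTOR complex signalling, and *mknk2a* came only from the table of changed genes, with log2 differences of 3.38 and 1.69.

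Markers of some tissues differed between the groups as well. Those from the table of changed genes were selected for their change on these arrays, so sums that hold them are only a description. Cycling cells were represented by 3 of 13 marker genes, whose summed intensity, on the log2 scale, was 11.73 to 12.19 in *vhl* mutants, against 12.65 to 12.79 in wild-type. At an adjusted p of 0.05, 1 of 3 passed, in the lower direction, as 12.7% of all probes did. It was *mcm5*, a subunit of the replicative helicase (-1.44, SE 0.16, limma adjusted p = 0.00269). Photoreceptor markers (7 of 9, 4 of them from the table of changed genes) summed to 17.43 to 17.67 in *vhl* mutants, against 18.86 to 18.95 in wild-type. Among them *gngt2a*, from that table, went the other way, with a log2 difference of 2.02. The 3 tested photoreceptor markers passed an adjusted p of 0.05 in the lower direction, as 12.7% of all probes did. They were *gnat1* (-0.85, limma adjusted p = 0.0335), *gnat2* (-1.40, limma adjusted p = 0.00139) and *opn1mw1* (-1.84, limma adjusted p = 0.000993). Exocrine pancreas markers (2 of 14, both from that table) summed to 12.58 to 13.68 in *vhl* mutants, against 14.84 to 15.65 in wild-type. Both were chosen for their change, so a difference in this sum was fixed in advance. Erythroid markers (2 of 9, 1 of them from that table) ran the other way, at 16.78 to 17.42 in *vhl* mutants, against 14.82 to 14.95 in wild-type. That sum is mostly *hbbe2*, the gene from that table. The other, *alas2*, was tested and had a log2 fold change of 2.88 (SE 0.32, limma adjusted p = 0.00268). Skeletal muscle markers (2 of 10) summed to 18.05 to 18.25 in *vhl* mutants, against 18.02 to 18.08 in wild-type, with 0 of 2 passing, against 24.4% of all probes in either direction. Liver markers (4 of 12, 3 of them from that table) summed to 16.63 to 16.77 in *vhl* mutants, against 16.52 to 16.70 in wild-type. Their log2 differences went both ways, from -0.87 for *serpina1* to 2.55 for *cp*. Lens markers (4 of 10) summed to 17.73 to 17.94 in *vhl* mutants, against 17.76 to 17.92 in wild-type. Within that list *crygn2* was higher (4.17, limma adjusted p = 0.000383) and *cryaa* lower (-1.24, limma adjusted p = 0.0145). The part of these tissues in the ribosomal values was not tested.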

How the data were processed

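Per the labels, the 6 arrays were grouped by sample title. Per the submitters' processing notes, the arrays were quantified in Agilent Feature Extraction 10.7.3.1 and analysed by the authors with limma 3.24.10. The deposited scanner files hold intensities per spot, of which the median pixel intensity and the local background median, neither corrected nor normalised by the authors, were used. The deposited processed signal is an intensity that Feature Extraction had background-subtracted and detrended, and the deposited series table equals it within 0.496%, with 0 columns that belonged to no sample. The deposited flags (control, outlier, saturated, well above background) are codes without a unit.

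The functions named in the study's methods were applied with limma 3.58.1 in R 4.3.3. These were normexp (offset 50, not given in the methods), quantile normalisation, averaging of spots by probe, and lmFit with eBayes on log2 values, with Benjamini-Hochberg adjustment over 41031 probes. The methods do not say whether their p was adjusted. Outlier-flagged spots (15 to 63 per array) were left out, as were 1264 positive and 153 negative control spots, and 0 spots were saturated. The offset understates the change of dim probes. The number of arrays limits the precision, and p-values measure the spread between these pools. In simulated data of the same 41031 probes, 90 of 100 changes of log2 3 and 72 of 100 of log2 1.5 were recovered, with 1 false call. The noise was drawn independently for each probe and without a slide difference. That count therefore does not estimate false calls on these arrays, and changes smaller than log2 1.5 were not simulated.

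Symbols came from the probe's accession matched without version to RefSeq genes (1752 probes), then from the study's full probe table, available in part (805), then from its table of changed genes (602). These tables served only to pair probes with symbols. Their fold changes and p-values were not used. No coordinates are given, because the array was annotated on an older build.

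The members and lists were chosen with earlier results of these data known. Any member could be named. Values on every array were given for members that passed, for *mrps18b* and *ptcd3*, and in each class for the brightest member and the largest change each way, and were extended to the others. Alternatives covered the signal, background correction, offset (0 and 16), normalisation, outlier spots, dim probes, the variance model, array weights, a replicate block, leaving out each replicate in turn, and the source of the symbol. Scaling with the 2 extreme spots left out, and the contrasts with initiation factors, were added after the data were seen. Slide could not be fitted as a block, since each slide held 1 group.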

Additional observations from a re-analysis of the deposited data

Results flagged for a closer look

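The bright corner features, control spots of the array design that bind no embryo RNA, were brighter on *vhl* mutant arrays. The values are those after background correction and quantile normalisation over all spots, controls included. The features averaged 14.23 ± 0.08 on *vhl* mutant arrays (14.18 to 14.32) and 13.62 ± 0.13 on wild-type arrays (13.51 to 13.76, SD of the normalised log2 values, n = 3 each), a difference of 0.61. These features enter no comparison of translation genes, and they were singled out because they carry a difference between the groups in data outside the main measurement. The E1A spike-in, normalised in the same way, differed in the same direction, at 11.54 ± 0.21 on *vhl* mutant arrays and 11.06 ± 0.22 on wild-type arrays (SD, n = 3 each), a difference of 0.48. Each group lay on its own slide, so genotype and slide cannot be told apart. Groups of 3 arrays are too small for a check of single outlying arrays, and none was made.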

How the results depend on the processing

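The median of the mitochondrial genes and that of the cytosolic genes kept their sign in each of 26 alternatives, and mitochondrial minus initiation stayed within 1 SD of its value in each of 26. That value is a difference of class medians. The SD is that of the difference of class means between arrays, pooled over both groups. Scalings that differ only by a shift of whole arrays gave the same or nearly the same values, so these are not 26 separate checks. Fold changes are relative to the median of all probes where a scaling moved it by more than 0.1, but counts and adjusted p-values rest on the fold change as fitted. With E1A scaling *mrps31*, *mrps18b* and *ptcd3* had the same SE (0.37, or 0.28 with the 2 extreme spots left out). The p-values and counts with E1A scaling therefore do not measure the spread of single genes. The cause of the changes listed was not tested.

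The count of genes passing 2-fold and an adjusted p of 0.01, which was 1, became 0 with the processed signal (4.38% of all probes) or the deposited series table (4.4%), both with quantile normalisation. It also became 0 with normexp at the 75th percentile (0.0219%) or without normalisation (0.00731%), and with the replicate block (0.758%). It became 9 with E1A scaling, and with the 2 extreme spots left out it became 4 without normalisation and 10 with E1A scaling. The share of all probes that passed moved as well, being 3.22% as reported, 12.4% with E1A scaling, and with the 2 extreme spots left out 5.05% without normalisation and 17.3% with E1A scaling. Leaving out 1 array gave 0 to 2, in fits where 0.948 to 5.29% of all probes passed. The count at an adjusted p of 0.05, which was 8, became 5 with an offset of 0 (21.7% of all probes), with the processed signal at the 75th percentile (33.9%) and with RefSeq symbols only (of 17 genes), 0 with normexp at the 75th percentile or without normalisation, 13 with E1A scaling and 15 with E1A scaling and the 2 extreme spots left out, where 35.1% of all probes passed. With the 2 extreme spots left out it was 10 at the 75th percentile (54.9% of all probes) and 10 without normalisation (26.1%). Leaving out 1 array gave 4 to 10, in fits where 13.8 to 31.8% of all probes passed.

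The mitochondrial median of -0.54 became -0.88 with the processed signal at the 75th percentile and -1.33 with normexp at the 75th percentile, without normalisation or with E1A scaling. With the 2 extreme spots left out it was -0.87 at the 75th percentile or with E1A scaling and -0.89 without normalisation. Leaving out 1 array gave -0.68 to -0.42. The cytosolic median of -0.39 became -0.71 with the processed signal at the 75th percentile and -0.97 with normexp at the 75th percentile, without normalisation or with E1A scaling. With the 2 extreme spots left out it was -0.64 at the 75th percentile or with E1A scaling and -0.66 without normalisation. Leaving out 1 array gave -0.62 to -0.26. The initiation median of 0.17 became 0.044 with the processed signal and 0.045 with the series table (quantile), 0.12 with array weights, -0.26 with the processed signal at the 75th percentile and -0.66 with normexp at the 75th percentile, without normalisation or with E1A scaling. With the 2 extreme spots left out it was -0.088 at the 75th percentile or with E1A scaling and -0.11 without normalisation. Leaving out 1 array gave 0.032 to 0.18. Mitochondrial minus cytosolic, -0.15, became -0.36 with normexp at the 75th percentile, without normalisation or with E1A scaling, and leaving out 1 array gave -0.26 to 0.063. Cytosolic minus initiation, -0.56, became -0.31 with the same 3 scalings, and leaving out 1 array gave -0.77 to -0.33.

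Replicate numbers 3 and 4 occur in both groups. Samples of the same number did not deviate together (correlation of deviations 0.00561 for number 3 and 0.0133 for number 4), so the numbers were not read as a pairing. With the replicate number as a replicate block, 0 genes passed 2-fold and an adjusted p of 0.01 (0.758% of all probes). The cytosolic median was then -0.76, mitochondrial minus cytosolic was 0.081 and cytosolic minus initiation was -0.89. Numbers 1 and 2 each occur in 1 group, so *vhl* mutant replicate 1 and wild-type replicate 2 do not enter the group difference of that fit.

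Single genes changed sign as follows, relative to the median of all probes where a scaling moved it by more than 0.1. With normexp at the 75th percentile, without normalisation or with E1A scaling, *mrpl39* was -0.73, *eif4g2b* -0.87, *eif2s3* -0.66, *eif4e2* -0.58 and *eif3s10* -0.49. With the processed signal at the 75th percentile, *mrpl39* was -0.10, *eif4g2b* -0.27, *eif2s3* -0.10, *eif4e2* -0.32 and *eif3s10* -0.13. With the 2 extreme spots left out, at the 75th percentile or with E1A scaling, *mrpl39* was -0.23, *eif4g2b* -0.30, *eif2s3* -0.088 and *eif4e2* -0.045, and without normalisation *mrpl39* was -0.25, *eif4g2b* -0.32, *eif2s3* -0.11 and *eif4e2* -0.066. With cyclic loess *rps19* was 0.14 and *eif2s1b* 0.012. When 1 array was left out, *eif4g2b* ranged from -0.063 to 0.088, with the values below 0 being those without *vhl* mutant replicate 4 and without wild-type replicate 3 (-0.061).

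Each gene had 1 probe, so keeping the brightest probe of a gene changed nothing. Probes near background, among them *rps6ka4* and *mrps33*, have the least reliable fold changes. With 3 cytosolic genes and 1 elongation factor tested, these classes are thinly covered.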
